A study of Mus musculus with 8 samples.

Results

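Genes of epithelial antimicrobial and defence proteins were followed in organoids grown from the glandular stomach (hindstomach) of mice. The group had 9 members: Lcn2, Wfdc2, Slpi, Lyz1, Lyz2, Pigr, Ltf, Reg3b and Reg3g. They were taken by symbol, and all 9 were found among the 56691 rows of the count table. They were chosen by what they do and with their fold changes between the genotypes in these same libraries already known, so the differences of its members are given as a description, with no test.

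Organoids are cultures that grow in 3 dimensions. They were started from epithelium of embryonic day 18.5 and kept for 5 days in growth medium and 7 more days in differentiation medium. The 4 control cultures (Ctrl) carried Shh-Cre, a recombinase driven from the Sonic hedgehog locus, which is active in the embryonic gut epithelium. The 4 others (YAP5SA) carried Shh-Cre;YAP5SA, that is the same Cre and in addition YAP5SA, a mutant of the Hippo pathway effector YAP whose serine-to-alanine changes remove inhibitory phosphorylation sites. The labels name no embryo, litter or culture day, so the spread between replicates may be technical and may not reach the spread between animals.

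Lining epithelia defend themselves with secreted proteins as well as with mucus. Lipocalin-2 (Lcn2) binds bacterial siderophores and lactoferrin (Ltf) binds iron, so both withhold iron from microbes. Lysozymes (Lyz1, Lyz2) cut bacterial peptidoglycan, and the C-type lectins Reg3b and Reg3g act on bacteria close to the mucosa. Slpi and Wfdc2 are small secreted proteins with whey acidic protein (WAP) domains, and Slpi inhibits neutrophil elastase. Pigr is a receptor, the carrier of polymeric immunoglobulin across the epithelium. In the intestine Lyz1 is known from Paneth cells, while Lyz2 is the lysozyme of macrophages, and neutrophil granules hold Ltf and Lcn2. Many of these genes are known to be induced by cytokines through NF-kappa-B, C/EBP and STAT factors.

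The promoters of the genes with the clearest values are shown so that their start regions can be read beside the values: Lcn2, Ltf and Wfdc2 were higher and Pigr was lower in YAP5SA. Each window runs from 250 bases before to 50 bases after a transcription start, 5′ to 3′ on the gene's strand, from RefSeq on GRCm38.p6. All 9 members matched that table. Capitals mark matches, on either strand, to short motifs of 7 kinds of factor, which are spelled out after the sequences. Where capitals run on, matches overlap, as for an ETS and a STAT match at the end of the Pigr window.
Lcn2, chr2:32387690-32387989, - strand: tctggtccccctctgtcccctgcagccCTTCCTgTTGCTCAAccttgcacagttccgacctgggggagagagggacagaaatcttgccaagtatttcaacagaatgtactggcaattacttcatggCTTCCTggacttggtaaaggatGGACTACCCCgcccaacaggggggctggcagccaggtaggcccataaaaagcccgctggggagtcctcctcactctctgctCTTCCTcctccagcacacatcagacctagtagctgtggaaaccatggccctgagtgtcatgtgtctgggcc
Ltf, chr9:111019042-111019341, + strand: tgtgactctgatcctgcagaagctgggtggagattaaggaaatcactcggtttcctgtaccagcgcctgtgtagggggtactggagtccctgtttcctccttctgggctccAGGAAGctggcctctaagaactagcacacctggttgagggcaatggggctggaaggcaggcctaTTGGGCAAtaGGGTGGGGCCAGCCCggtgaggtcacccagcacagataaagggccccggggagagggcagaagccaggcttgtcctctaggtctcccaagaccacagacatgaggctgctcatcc
Wfdc2, chr2:164562465-164562764, + strand: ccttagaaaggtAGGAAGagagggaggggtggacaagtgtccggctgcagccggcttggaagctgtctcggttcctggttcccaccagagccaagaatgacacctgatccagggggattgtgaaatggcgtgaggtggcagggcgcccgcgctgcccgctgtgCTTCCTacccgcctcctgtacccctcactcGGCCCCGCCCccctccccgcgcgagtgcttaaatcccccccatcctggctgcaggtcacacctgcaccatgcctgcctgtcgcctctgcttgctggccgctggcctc
Pigr, chr1:130826434-130826733, + strand: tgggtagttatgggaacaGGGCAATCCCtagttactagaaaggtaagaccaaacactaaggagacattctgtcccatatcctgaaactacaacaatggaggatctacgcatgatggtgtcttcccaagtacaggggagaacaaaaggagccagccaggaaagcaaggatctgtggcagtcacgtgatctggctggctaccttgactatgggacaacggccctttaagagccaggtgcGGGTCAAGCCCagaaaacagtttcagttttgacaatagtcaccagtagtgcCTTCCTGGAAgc

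The C/EBP motif, searched as TTGCNNAA, stood in 4 of the 9 promoters, those of Lcn2, Ltf, Slpi and Lyz1, against 10.8% of 32851 windows of the same length. In Lcn2 the match began 216 bases before the start and in Ltf 75 bases before it. The NF-kappa-B motif was searched in a loose form as GGGNNNNNCC, and it was in 5 promoters and in 50.8% of all windows. ETS motifs, with the letters AGGAAG, were in 7 promoters and in 35.4% of all. STAT motifs, with TTCNNNGAA, were found in Pigr and Reg3b and in 8.30% of all windows. A TATA box, with the letters TATAAA, was found in Reg3b and Reg3g and in 13.6% of all. The TEAD motif, with GGAATG, occurred in the window of Lyz1 alone among the members and in 14.7% of all windows. The AP-1 motif, with TGANTCA, was in none of the 9 and in 7.81% of all. These are matches of letters, not sites of binding.

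The 2 lysozyme genes are neighbours on chromosome 10 and are shown together because their counts went in opposite directions. Their promoter windows were 82.5% identical, and 99 of the last 100 bases were the same.
Lyz1, chr10:117292819-117293118, - strand: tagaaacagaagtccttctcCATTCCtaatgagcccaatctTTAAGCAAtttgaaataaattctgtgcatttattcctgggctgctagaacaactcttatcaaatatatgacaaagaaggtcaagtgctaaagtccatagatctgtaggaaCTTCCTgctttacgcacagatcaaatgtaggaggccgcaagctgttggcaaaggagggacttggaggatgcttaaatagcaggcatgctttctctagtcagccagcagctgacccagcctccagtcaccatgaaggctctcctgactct
Lyz2, chr10:117282223-117282522, - strand: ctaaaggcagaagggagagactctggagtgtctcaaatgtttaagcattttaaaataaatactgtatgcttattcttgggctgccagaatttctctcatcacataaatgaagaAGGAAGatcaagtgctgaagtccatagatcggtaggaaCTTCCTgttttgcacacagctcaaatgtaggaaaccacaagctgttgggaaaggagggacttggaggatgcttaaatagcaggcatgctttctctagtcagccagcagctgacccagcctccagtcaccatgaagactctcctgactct
Their coding sequences, 444 bases each, differed at 22 positions (95.05% identity). Below are coding bases 43 to 132 in GENCODE M21, the stretch of 90 bases with the most differences, 13, which are in capitals.
Lyz1: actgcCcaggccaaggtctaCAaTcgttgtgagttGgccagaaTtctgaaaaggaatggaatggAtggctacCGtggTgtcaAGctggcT
Lyz2: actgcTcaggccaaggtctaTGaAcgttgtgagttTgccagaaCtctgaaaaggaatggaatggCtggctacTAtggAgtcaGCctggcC
No stretch of 150 bases, the length of a sequenced end, was identical between the longest coding transcript of any member and a transcript of another gene. Reads of 150 bases without errors could therefore tell Lyz1 from Lyz2, and Reg3b from Reg3g, whose coding sequences were 76.0% identical. How the authors treated reads with mismatches is not given in the sources used here, so the values of Lyz1 and Lyz2 remain uncertain to that extent.

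Total counts were 17387372 to 25841256 per library. The groups also differed completely in sex-linked transcripts. Xist had 8436 to 12237 counts in Ctrl libraries and 0 to 8 in YAP5SA libraries, while Eif2s3y, Ddx3y, Kdm5d and Uty, all on the Y chromosome, were at 0 in Ctrl and between 880 and 3854 counts per YAP5SA library. Genotype and sex-linked transcripts cannot be told apart in any difference below. Yap1 itself averaged 118 ± 11.0 counts per 1e6 counts (CPM) in Ctrl and 140 ± 2.22 in YAP5SA (SD, n = 4). Whether transgene reads fall in its row is not given in the sources used here. The YAP targets Ccn1, Ccn2, Ankrd1 and Amotl2 all rose, by 1.88 to 3.76 on the log2 scale.

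Among the members, the iron-withholding genes Lcn2 and Ltf and the WAP-domain gene Wfdc2 were higher and the immunoglobulin carrier Pigr was lower in YAP5SA. Of the 9 members, 5 passed the filter on low counts, and 4 of these (Lcn2, Ltf, Wfdc2, Lyz2) were called higher and 1 (Pigr) lower at an edgeR adjusted p under 0.05. Lcn2 and Lyz2 passed that filter through their YAP5SA libraries, as no Ctrl library held more than 10 and 2 counts of them. Of all 13812 genes tested, 64.3% were called, 33.0% higher and 31.3% lower. Scaling by library size alone gave 5735 higher and 3189 lower genes in place of 4563 and 4323. It also moved the median log2 fold change of all genes from 0.02 to 0.19. As the members were chosen with this contrast known, nothing is read from their count. Their groups did not overlap for 4 members with YAP5SA above, and for 2, Pigr and Lyz1, with YAP5SA below. Of all genes tested, 58.7% did not overlap, 30.4% with YAP5SA above and 28.3% with YAP5SA below. All CPM values are scaled by the TMM method. In bulk RNA, fewer cells of a type and less RNA per cell cannot be told apart.

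**Figure D1:**
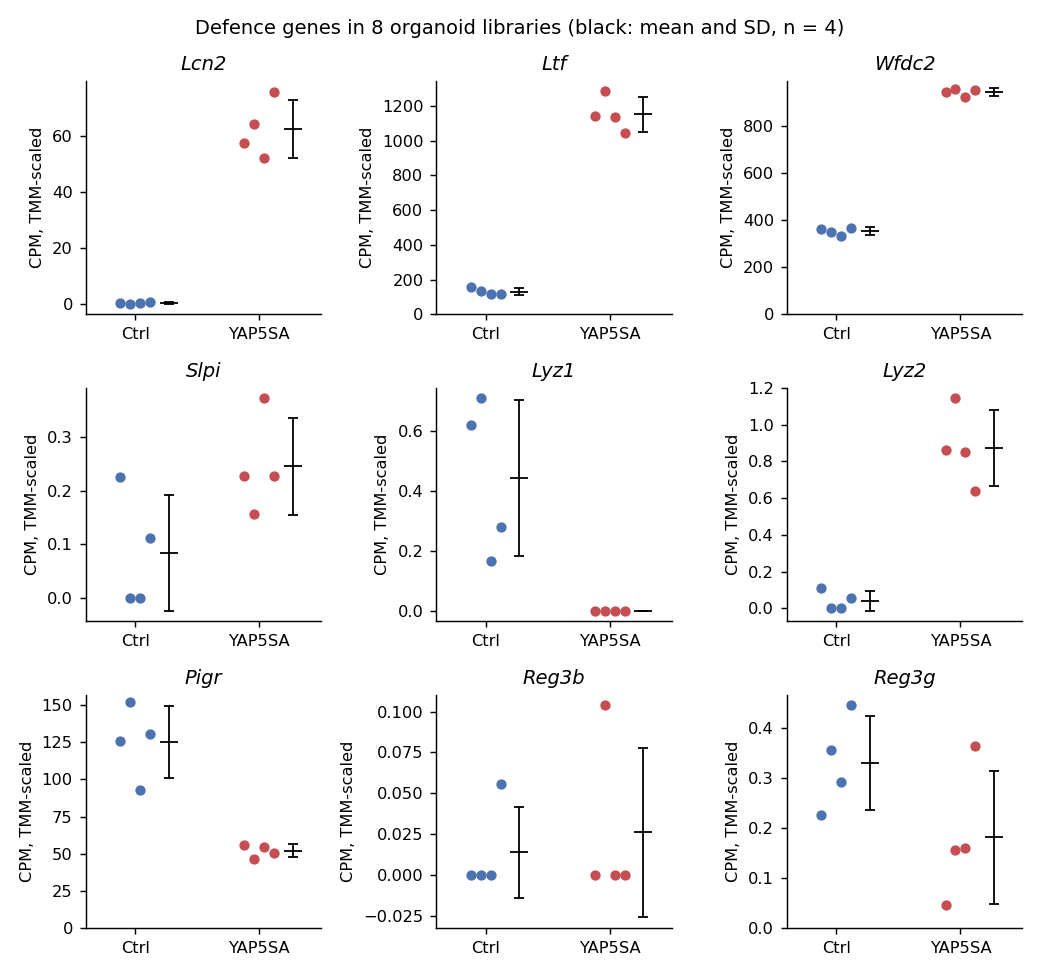
CPM of the 9 members (vertical axes from 0 or below, 1 panel per gene) in the 4 Ctrl and 4 YAP5SA libraries; points are libraries and the black mark with whiskers is the mean ± SD. Lcn2, Ltf, Wfdc2 and Lyz2 lie higher in every YAP5SA library, Pigr and Lyz1 lower, and the groups of Slpi, Reg3b and Reg3g overlap.

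Lcn2, the siderophore-binding lipocalin, was nearly missing from control organoids. The Ctrl libraries, in the order of replicates 1 to 4, held 7, 1, 7 and 10 counts of Lcn2, and the YAP5SA libraries 1271, 1239, 979 and 1667. The lowest YAP5SA library thus lay far above the highest Ctrl library. Mean levels were 0.326 ± 0.209 and 62.5 ± 10.3 CPM (SD, n = 4). The fitted log2 fold change was 7.55 (SE 0.24). Of the 13812 tested genes, 24 had a larger one, among them the Y-linked Eif2s3y, Ddx3y, Kdm5d and Uty. As Lcn2 was chosen with its fold change known, nothing is read from this rank. In counts per total count the ratio was 218, with an exact 95% interval of 147 to 337 that covers counting error only. Leaving out Ctrl replicate 2, which holds a single count, gave 7.24 and leaving out Ctrl replicate 4 gave 7.88 on the log2 scale.

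Ltf, which encodes the iron-binding lactoferrin, was well expressed in both groups. It had 159, 133, 116 and 115 CPM in the Ctrl libraries and 1144, 1284, 1135 and 1041 CPM in the YAP5SA libraries. The groups were far apart, and the coefficient of variation was 15.7% in Ctrl and 8.70% in YAP5SA. The log2 fold change was 3.13 (SE 0.11), or 8.79-fold. Of all tested genes, 2.87% were called at more than 8-fold higher.

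Wfdc2, the WAP-domain protein also known as HE4, was the member with the steadiest values. Its CPM were 360, 350, 331 and 368 in Ctrl and 944, 954, 920 and 951 in YAP5SA. Each group stayed within a narrow band, with a coefficient of variation of 4.53% and 1.64%. The log2 fold change was 1.42 (SE 0.07), 2.68-fold. Its WAP-domain relative Slpi was hardly detected. Slpi had 4, 0, 0 and 2 counts in Ctrl and 5, 3, 7 and 5 in YAP5SA, and the groups overlap. The ratio of Slpi counts per total was 3.52 (95% counting interval 1.36 to 10.7), and it was not called without a filter or by DESeq2.

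The lysozyme genes were both scarce. Lyz1, the Paneth cell form, had 11, 12, 4 and 5 counts in Ctrl and 0 in each YAP5SA library. A count of 0 allows up to 3 counts, or 0.143 to 0.173 CPM per YAP5SA library. With a floor of 3 counts over the YAP5SA libraries together, Lyz1 was at least 10.1-fold lower there if its 32 Ctrl counts are taken as exact. The counting error of the Ctrl side is not included. It lay under the filter on low counts, and it was called lower without that filter and by DESeq2. Lyz2, the macrophage form, went the other way, with 2, 0, 0 and 1 counts in Ctrl and 19, 22, 16 and 14 in YAP5SA. The groups do not overlap, but the Ctrl side rests on 3 counts. The ratio of Lyz2 counts per total was 24.96 (95% counting interval 8.20 to 124). The fitted log2 fold change of 4.26 (SE 0.66) was 5.21 without Ctrl replicate 1 and 3.77 without Ctrl replicate 3.

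Pigr, the polymeric immunoglobulin receptor, was the only member with substantial expression that was lower. It had 126, 152, 93.0 and 130 CPM in Ctrl and 56.0, 46.4, 54.6 and 50.6 CPM in YAP5SA. The lowest Ctrl library, replicate 3, still lay above all YAP5SA libraries. The log2 fold change was -1.27 (SE 0.13), or 2.41-fold lower, and 11.5% of tested genes were called at more than 2-fold lower. Without Ctrl replicate 3 the value was -1.41.

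The C-type lectin genes were near the floor in both groups. Reg3g had 4, 6, 7 and 8 counts in Ctrl and 1, 3, 3 and 8 in YAP5SA, so the groups overlap. Its counts per total were 1.58-fold those of YAP5SA in Ctrl, with a counting interval of 0.801 to 3.22 that includes no difference. Reg3b had 1 count in all of Ctrl and 2 in all of YAP5SA, and no fold is given. A difference in Reg3b was not detectable at this depth.

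Levels were compared between genes per kilobase of transcript. With the longest GENCODE M21 transcript as the length, Wfdc2 had 415 ± 18.8 CPM per kilobase in Ctrl, Ltf 47.8 ± 7.49, Pigr 32.5 ± 6.31 and Lcn2 0.237 ± 0.152 (SD, n = 4). In YAP5SA the order was Wfdc2 at 1110 ± 18.2, Ltf at 420 ± 36.5, Lcn2 at 45.5 ± 7.47 and Pigr at 13.5 ± 1.13 CPM per kilobase. Lcn2 and Pigr thus changed places. Ltf was 1.23 to 1.77 times Pigr in the Ctrl libraries and 28.7 to 38.9 times Pigr in the YAP5SA libraries. In Ctrl, Wfdc2 stood at percentile 99.1 of tested genes per kilobase, Ltf at 89.1, Pigr at 84.6 and Lcn2 at 6.38. In YAP5SA the percentiles were 99.7, 99.0, 69.5 and 89.0 in the same order. The scale depends on the length used: with the median transcript length, YAP5SA organoids had 2197 ± 35.9 CPM per kilobase of Wfdc2, 2136 ± 186 of Ltf, 72.1 ± 11.8 of Lcn2 and 66.2 ± 5.55 of Pigr. On that scale Wfdc2 and Ltf, and likewise Lcn2 and Pigr, lay within their spread. The members together made up 0.0503% to 0.0630% of all counts in Ctrl libraries and 0.221% to 0.247% in YAP5SA libraries. Ltf and Wfdc2 supplied 76.0% to 82.7% of those counts in Ctrl and 94.0% to 95.2% in YAP5SA.

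**Figure D2:**
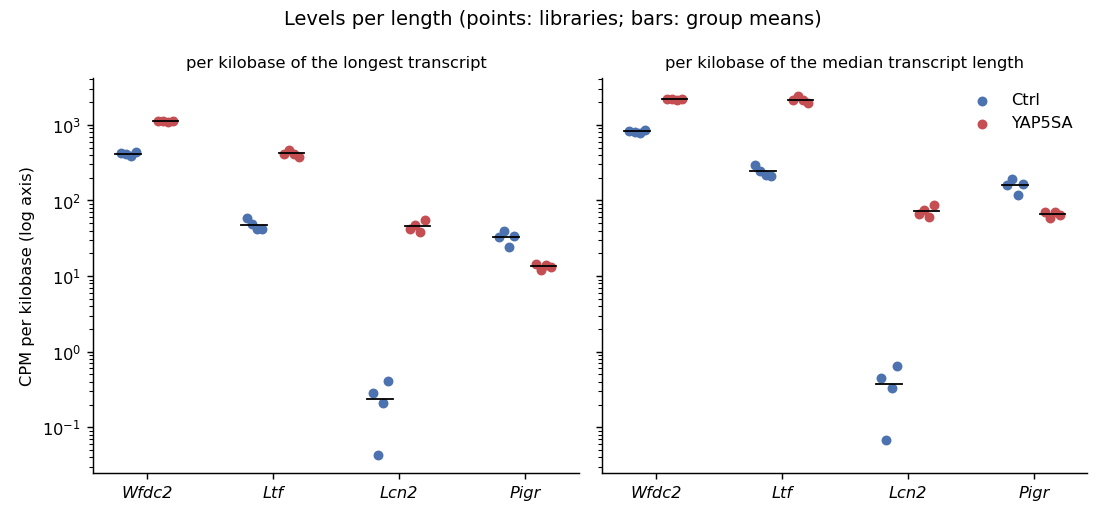
CPM per kilobase on a log axis for the 4 members above 10 CPM in any group, with the longest transcript (left) or the median transcript length (right) as the length; points are libraries and bars are group means. Wfdc2 is highest in the left panel and overlaps Ltf among YAP5SA libraries in the right, and Lcn2 passes from 0.237 to 45.5 CPM per kilobase of its longest transcript.

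Other genes of host defence were read from 8 lists, which cover further antimicrobial proteins, relatives of the members, iron handling, immunoglobulin transport, inducing receptors and factors, acute-phase genes and oxidant defence. Together the lists held 234 genes outside the members, of which 140 were tested. Of these, 39 were higher and 71 lower, 78.6% called against 64.3% of all genes, with a median log2 fold change of -0.29 against 0.02 for all genes. The lists were drawn up from general knowledge with earlier results of these data known.

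Other antimicrobial genes that could be tested went both ways. Of 45 on the list, 14 were tested, of which 5 rose, 8 fell and 1 missed the threshold (median -0.84). Of all genes tested, 33.0% were called higher and 31.3% lower. The antimicrobial ribonuclease genes Rnase4 and Ang fell by 3.25 (SE 0.10) and 2.54 (SE 0.17) on the log2 scale. Rnase4 went from 322 ± 41.2 to 33.8 ± 2.04 CPM. Rnase4 and Ang are overlapping genes, so their reads are not fully separable. The secreted phospholipase gene Pla2g10 went from 29.1 ± 3.75 to 1.05 ± 0.350 CPM, a log2 fold change of -4.80 (SE 0.19). Lgals9, a galectin, fell by 1.39 (SE 0.08). Further genes of the list are named here after their values were seen. Lypd8, which keeps flagellated bacteria off the colonic epithelium, was at -4.21 (SE 0.43) and Bpifb1, a BPI-fold protein, at -4.70 (SE 0.70). In the direction of Lcn2 went the peptidoglycan recognition gene Pglyrp3 (5.83, SE 0.57, and 7.71 without Ctrl replicate 4), the lipopolysaccharide-binding protein gene Lbp (4.04, SE 0.31), Adm (2.50), Pglyrp1 (0.68) and Cd14 (0.55). A total of 16 genes on the list, among them Camp, Reg2, Reg3a and Reg3d, had 0 counts in all libraries. Among relatives with a WAP or Kunitz domain, 4 of 22 were tested. Wfdc3 rose by 1.01 (SE 0.32), a call that ended without YAP5SA replicate 1 (0.77, edgeR adjusted p = 0.0627). Spint1 and Spint2, membrane inhibitors of epithelial serine proteases, fell by 0.45 and 0.46. Wfdc1 was at 1.08 (edgeR adjusted p = 0.0808). Leaving out Ctrl replicate 2 gave 1.69 (edgeR adjusted p = 0.0109), and leaving out YAP5SA replicate 3 gave 1.29 (edgeR adjusted p = 0.0487). Wfdc1 also passed with library size scaling, with no filter and with the replicate block.

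The list of genes that handle lipocalin-2 and iron held a few steep rises, but its median was near that of all genes. The list had 14 tested genes, of which 6 rose, 3 fell and 5 missed the threshold (median 0.08, against 0.02 for all genes). Of all genes tested, 33.0% were called higher and 31.3% lower. Lrp2, which encodes megalin, an endocytic receptor for lipocalin-2 and many other ligands, had 10 counts in all of Ctrl and 902 in all of YAP5SA (6.32, SE 0.37, and 7.18 without Ctrl replicate 1). Trf, the gene of transferrin, went from 7.75 ± 1.79 to 144 ± 10.7 CPM (4.21, SE 0.14), and Cp, the ferroxidase ceruloplasmin, rose by 3.49 (SE 0.32). Aco1, which encodes the iron-responsive protein IRP1, fell by 1.07 (SE 0.08). Slc22a17, another lipocalin-2 receptor gene, rose by 1.09 (SE 0.23). Bdh2, an enzyme linked to the mammalian siderophore, rose by 4.07 from 10 counts in all of Ctrl (SE 0.52, and 5.64 without Ctrl replicate 3). Mc4r, also a receptor for lipocalin-2, had 0 counts in all libraries. These were named after their values were seen. The ferritin light chain gene Ftl1 was at -0.41 and Lrp1 at -0.92, both called lower. Tfrc, Fth1, Slc11a2, Ireb2 and Ncoa4 were not called, at -0.26, -0.06, -0.11, 0.06 and 0.09.

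For Pigr, a list of genes of immunoglobulin transport and of regulators of Pigr was read. It had 17 tested genes, 9 lower, 6 higher and 2 not called (median -0.22, or -0.04 with library size scaling). Rab3d, a GTPase of secretory vesicles that binds Pigr, went from 271 ± 11.8 to 67.9 ± 4.79 CPM. The apical sorting proteolipid gene Mal fell by 1.13 (SE 0.10), from 4937 ± 762 CPM. Rab11fip5, which binds a recycling GTPase, rose by 0.79. Named after their values were seen, Rab17, a GTPase of epithelial transcytosis, rose by 1.81 and the motor gene Myo5b fell by 0.73. The regulators on the list are Tgfbr2, Nr3c1, Irf1, Irf2, Usf1 and Usf2. Tgfbr2 and Nr3c1 rose by 0.87 and 0.82 and Irf2 fell by 0.54, while Usf2, Usf1 and Irf1 were at 0.24, -0.06 and -0.02. The ligands of Pigr were close to absent: Jchain had 1 and 18 counts over the groups and Igha 3 and 0.

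The receptors and adaptors through which cytokines and microbes induce these proteins were mostly lower. Among 30 tested genes 19 fell, 6 rose and 5 missed the threshold (median -0.53). Of all genes tested, 31.3% were called lower and 33.0% higher. Library size scaling gave 8 higher and 17 lower and a median of -0.35. Il1r1, the interleukin-1 receptor, went from 171 ± 12.1 to 33.3 ± 7.12 CPM (-2.35, SE 0.13). Il22ra1, the epithelial subunit of the interleukin-22 receptor, fell by 2.22 (SE 0.21) and the adaptor gene Myd88 fell by 1.30 (SE 0.12). Tlr3, a receptor for double-stranded RNA, rose by 1.28 (SE 0.10). The interleukin-17 receptor and adaptor genes Il17ra, Il17re and Traf3ip2, named after their values were seen, fell by 0.77, 0.60 and 0.62. Il17rb, a receptor of the same family likewise named after its values were seen, went the other way, with 8 counts in all of Ctrl and 88 in all of YAP5SA (3.29, SE 0.47). The other genes of the list that rose were Tlr5 (2.48), Ripk2 (0.96), Il1rap (0.86) and Il18r1 (0.60).

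Transcription factors and regulators of the same routes gave 17 lower and 7 higher genes, with 7 more not called, out of 31 tested (median -0.27). Library size scaling gave 10 higher and 13 lower and a median of -0.10. The ETS factor genes Ehf and Elf3 went apart, Ehf by 0.96 (SE 0.07) and Elf3 by -0.98 (SE 0.09). Ikbkb, a kinase of the NF-kappa-B route, fell by 0.79 (SE 0.09) and Cebpg fell by 0.74 (SE 0.08). Outside the rule for named genes, Nfkbiz, a coactivator known for the induction of Lcn2, was at -0.51 and Stat3 at -0.65. Genes of the NF-kappa-B route went both ways. Nfkb1, Nfkbia and Tnfaip3 rose by 0.70, 0.78 and 0.32, while Nfkb2, Rela and Relb were at -0.27, -0.29 and -0.59. Cebpd was at 1.22. These too were named after their values were seen.

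**Figure D3:**
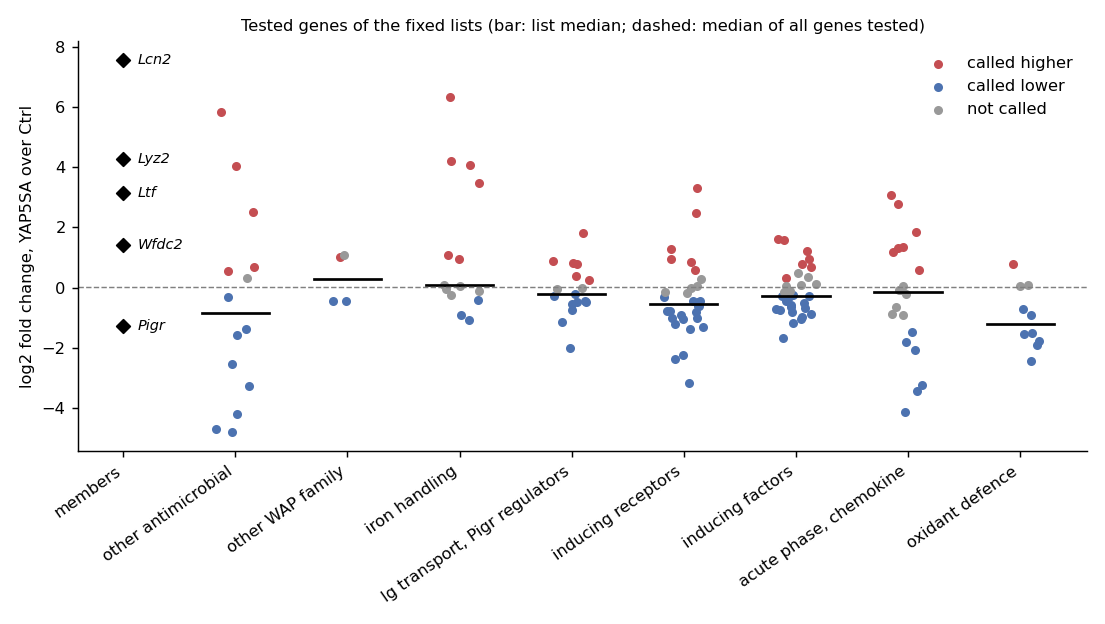
Log2 fold changes (YAP5SA over Ctrl) of the 5 tested members (diamonds) and of the tested genes of 8 lists (points, coloured by call), with list medians as bars and the median of all genes as a dashed line. The oxidant defence list has the lowest median, -1.21, and the iron handling list reaches 6.32.

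Acute-phase, complement and chemokine genes were split, with 7 rising, 6 falling and 7 missing the threshold among 20 tested. The median was -0.15, which turned to 0.02 with library size scaling. By the rule for named genes these were Cfi, a complement regulator, at -4.13 (SE 0.18) and the cytokine genes Il18, Il33 and Il1a at -3.43, -3.23 and -2.06. C3, the central complement component, rose by 3.08 (SE 0.29), and the neutrophil- and dendritic cell-attracting chemokine genes Cxcl2, Cxcl5 and Ccl20 rose by 1.86, 1.19 and 1.36. These were named after their values were seen. The oxidant defence list, which holds oxidases and their subunits and also the peroxide-removing Gpx2 and Gpx3, had 7 lower and 1 higher gene, Gpx3, among 10 tested (median -1.21). Duox2, an epithelial oxidase that makes hydrogen peroxide, went from 341 ± 105 to 121 ± 29.2 CPM (-1.49, SE 0.25). The Duox maturation factor gene Duoxa1 fell by 2.43 (SE 0.27), the glutathione peroxidase gene Gpx2 fell by 1.89 (SE 0.18) and Noxa1 fell by 1.76 (SE 0.25).

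Several members are also expressed by leukocytes or Paneth cells, so markers of these cells were read beside them, with the members left out of each list. The 17 neutrophil markers summed to 0.338 to 1.004 CPM in Ctrl and 0.745 to 1.82 CPM in YAP5SA, and 8 of them, among them Elane, Mpo and Camp, had 0 counts in all libraries. Neutrophil granule genes were thus at or near 0 where Ltf stood at 1151 ± 100 CPM. The 21 macrophage and leukocyte markers summed to 20.4 to 31.0 CPM in Ctrl and 92.7 to 109 CPM in YAP5SA. That sum was led by Csf1r (6.59, SE 0.18), Cd68 (1.63) and Fcgr3 (1.52), while Adgre1, Tyrobp and C1qc had 0 counts in all libraries and Ptprc had 15 and 3 counts over the groups. The sum moved with Lyz2, and its part in the Lyz2 counts was not tested. Of 15 Paneth cell markers 9 had 0 counts throughout, including 7 defensin genes and Ang4. The rest summed to 70.4 to 109 CPM in Ctrl and 136 to 162 CPM in YAP5SA, mostly Nupr1. Of the 3 tested, Mmp7 (4 and 495 counts over the groups) and Nupr1 were higher and Pnliprp2 (1050 and 220 counts) was lower. Itln1 had 15 and 0 counts and Habp2 37 and 6. Lymphocyte and plasma cell markers stayed at or under 0.532 CPM in sum. Mesenchymal markers summed to 1.66 to 2.79 CPM in Ctrl and 25.9 to 29.6 CPM in YAP5SA. In YAP5SA nearly all of the sum was Vim, which averaged 0.738 CPM in Ctrl and 25.6 CPM in YAP5SA (5.15, SE 0.33). The other tested mesenchymal marker, Tagln, was lower (69 and 23 counts). The rest lay under the filter on low counts. Of these, Myh11 had 5 and 54 counts over the groups, Pdgfra 8 and 36 and Pdgfrb 2 and 20. Col6a1 had 7 and 10 counts, Acta2 0 and 7 and Des 14 and 9. Col1a2, Lum and Postn were at 0 throughout, and Col1a1, Col3a1 and Dcn had at most 9 counts in a group. Endothelial markers reached 3.49 CPM at most.

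The labelled tissue was compared with its markers. All 14 epithelial markers were tested, with 6 higher, among them Epcam (296 and 591 CPM), Cldn3 (log2 fold change 4.03) and Cldn4 (1.08), 7 lower, among them Krt8 (-1.17) and Krt19 (-1.03), and 1 not called. Their sum was 19870 to 21160 CPM in Ctrl and 13800 to 16020 CPM in YAP5SA. The 16 gastric markers summed to 45430 to 72050 CPM in Ctrl and 5519 to 7267 CPM in YAP5SA, and 13 of the 14 tested were lower. Their part in the members' values was not tested.

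**Figure D4:**
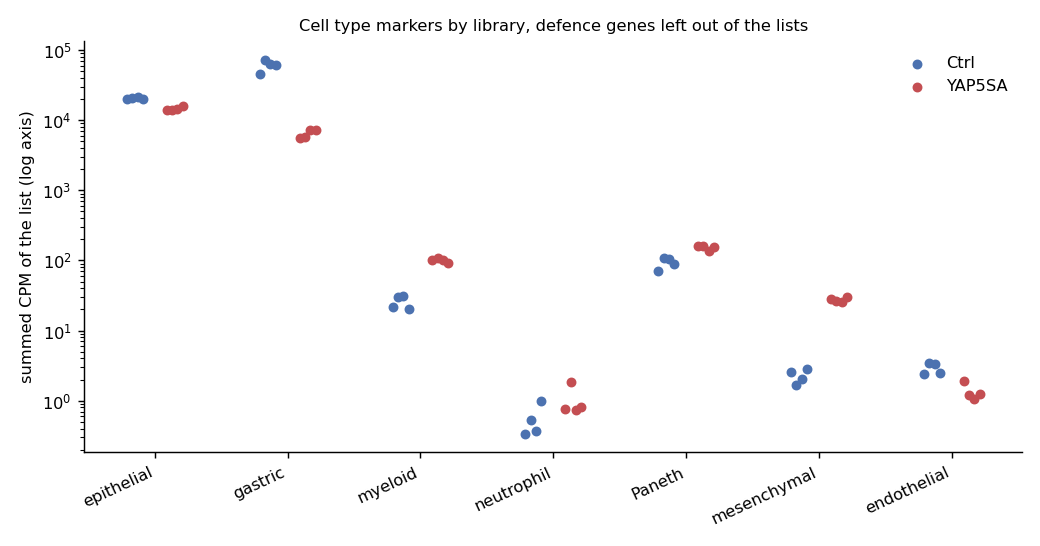
Summed CPM of cell type marker lists on a log axis, with members left out; points are the 4 libraries of each group. Neutrophil markers stay under 2 CPM in all 8 libraries, and gastric markers are lower in every YAP5SA library.

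In the order of genes along the chromosomes, from the GRCm38.p6 RefSeq table, the 2 protein-coding genes on each side of each member were read as well. These were 32 genes outside the members, of which 15 were tested, 5 higher, 3 lower and 7 not called. Of all genes tested, 33.0% were called higher and 31.3% lower. The neighbours of Lcn2 were at 1.79 (Dnm1), -0.57 (Ciz1), -0.31 (Ptges2, not called) and 0.51 (Slc25a25), against 7.55 for Lcn2. Beside Ltf, the chemokine receptor-like gene Ccrl2 had 41 counts over Ctrl and 426 over YAP5SA libraries (3.28, SE 0.28), beside 3.13 for Ltf. Lrrc2 had 6 and 80 counts. Lrrfip2, at 45.8 and 41.6 CPM, was not called (-0.14), and Rtp3 had 0 counts in both groups. Beside Pigr, the IgM receptor gene Fcmr had 18 and 421 counts (4.42, SE 0.35), opposite to Pigr. AA986860 (-0.15) and Fcamr (-0.41) were not called, and Il24, with 16 and 46 counts, was not tested. All neighbours named here were chosen after their values were seen.

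For the 3 most counted members, the genes with the most similar profile were found as those with the smallest root mean square difference of mean-centred log2 CPM over the 8 libraries. For Wfdc2 they were Tinagl1 (0.07), Arl5a (0.07) and Mapk8 (0.07), with log2 fold changes of 1.408, 1.375 and 1.395 beside 1.42 for Wfdc2. For Ltf they were Rhobtb3 (0.15) and Slc39a13 (0.15). The next by the rule, Lamc3, had 0 counts in Ctrl and 0.720 ± 0.0825 CPM in YAP5SA, so its distance is set by the prior count and no likeness is read from it. For Pigr they were Ppp1r10 (0.14), the Notch ligand gene Jag1 (0.15) and Sipa1l3 (0.15). Where the groups stand apart, a small distance needs little more than a like fold change and a narrow spread. No shared regulation is read from it.

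**Figure D5:**
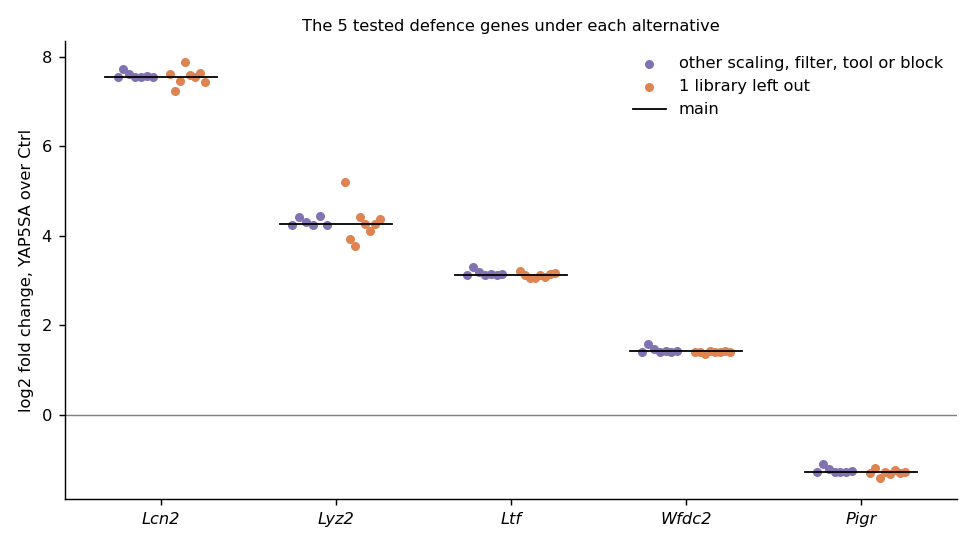
Log2 fold change (YAP5SA over Ctrl) of the 5 tested members with the other scalings, filters, tool and block (left points), with 1 library left out (right points) and as reported (line). All values keep their sign, and Lyz2 has the widest spread, 3.77 to 5.21.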

How the data were processed

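RNA was measured in 8 organoid cultures, 4 Ctrl and 4 YAP5SA, grouped and numbered by sample title. Per the labels' protocols, total RNA libraries were sequenced from both ends, 150 bases each. The table the authors deposited holds unnormalized counts per gene. The tools cutadapt, HISAT2 2.0.1 and HTSeq 0.6.1 and the build mm9 are named, without a role, per the submitters' processing notes. No source used here gives the annotation or strand setting, so overlapping and antisense genes may share reads.

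Genes kept by filterByExpr (minimum count 10, minimum total 15) were tested with edgeR 4.0.16 in R 4.3.3 (TMM scaling, robust quasi-likelihood F test, two-sided, no covariate, Benjamini-Hochberg adjustment over all 13812 genes, threshold 0.05). Standard errors are the absolute log2 fold change over the root of F. Counts of replicates differed beyond sampling noise (chi-square per degree of freedom 4.94 to 38.3). A floor of 3 counts corresponds to 0.116 to 0.173 CPM per library. Intervals are exact conditional binomial ones at 95% and, like floors, cover counting error only, since reads carry no molecular identifiers. Lengths and coding sequences came from GENCODE M21 (GRCm38), promoters from RefSeq. As the build of the counted annotation was not settled, coordinates are those of the sequences shown. The procedure was run on simulated data in which far fewer genes changed than were called here. That run does not test the scaling.

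The members and lists were chosen with earlier results of these data known. Named are all members, up to 4 tested genes of each list with the smallest p, the 4 most expressed markers of each cell type, the check genes, and 3 genes of similar profile for each of 3 members. Some genes this rule takes are given only within their list's counts. Alternatives were scaling by RLE, by upper quartile or by library size, the full table without a filter, a filter at 1 CPM in 4 libraries, DESeq2 1.42.0, the replicate number as a block, leaving out each library, and the median transcript length.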

Additional observations from a re-analysis of the deposited data

Results flagged for a closer look

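Among 33 sets of 4 values (members and summed marker lists in each group), Dixon's ratio passed its 95% critical value in 3, and chance flags about 1 in 20 sets. Reg3b was at 0.0558 CPM in Ctrl replicate 4, a single count, and at 0.104 CPM in YAP5SA replicate 2, with 2 counts, while the other libraries of each group had 0. The neutrophil marker sum was highest in YAP5SA replicate 2, at 1.82 CPM.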

How the results depend on the processing

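Over 15 alternatives no tested member reversed its direction. Members called higher numbered 4 in each but the filter at 1 CPM in 4 libraries, where Lyz2 was not tested and 3 were called. Members called lower numbered 2 without the filter on low counts and by DESeq2, where more genes were tested and Lyz1 joined Pigr. Fitted log2 fold changes ranged from 7.24 to 7.88 for Lcn2, 3.06 to 3.31 for Ltf, 1.37 to 1.59 for Wfdc2 and -1.41 to -1.09 for Pigr. The upper values of Ltf, Wfdc2 and Pigr came with library size scaling, which shifts all genes. With the replicate number as a block, 4724 genes were called higher and 4465 lower, and 4 members higher and 1 lower. Deviations of same-numbered libraries correlated by 0.0463 to 0.281 and not every library went best with its own number, so the numbers were not taken as pairs. Of 69 tested genes that the naming rule took outside the members, 62 kept direction and side of the threshold throughout. Other genes named in the text were not part of this count. The exceptions not given above were Esam, called in 5 settings, Krt7, not called in 5, Mrc1 and Krt18, called in 1 each, and Yap1, not called without Ctrl replicate 3 (0.19, edgeR adjusted p = 0.0685). Depth limits Slpi, Lyz1, Lyz2, Reg3b and Reg3g, with at most 22 counts in any library.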
